A study of Homo sapiens with 16 samples.

Results

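HL60, an established human acute myeloid leukaemia (AML) line that is widely used as a model of promyelocytes, was compared without drug treatment with the 3 other AML lines of the study, AML-193, HNT-34 and KG1a. The comparison rests on the 2 HL60 arrays from vehicle (DMSO) cultures and the 6 vehicle arrays of the other lines, out of 16 arrays in all. Each of the 3 other lines carried the same weight in the mean against which HL60 was set, and all genes on the array were considered. The other 8 arrays came from the same lines after azacitidine (AZA), a cytidine analogue, given at 0.5 µM on each of 3 days. Vehicle cells went through the same 3 days and, like the AZA cells, a further 4 days without drug. All cells grew in an RPMI medium made for mass spectrometry with light lysine and arginine, and RNA was taken from frozen pellets. AML-193 was derived from a monocytic leukaemia, and KG1a is an immature subline of KG1. The labels give no genotype or passage for any line and no replicate numbers. Each line stands for itself alone, so a difference between HL60 and another line has no replicate at the level of lines. Nothing in the labels tells whether the arrays of a pair represent separate cultures, and p-values then cover only the spread between arrays, which may be technical.

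A promyelocyte is the stage of neutrophil development at which azurophil granules are made. These granules carry myeloperoxidase and a set of serine proteases, and the genes for them are switched on by factors of the C/EBP family and switched off again before the cell matures. Earlier progenitors express CD34, HOX genes with their partner MEIS1, and MHC class II genes. HL60 cells can be driven in culture towards neutrophils or monocytes and carry extra copies of MYC, as the literature on this line describes.

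The deposited values were log2 signals on whole-genome Affymetrix arrays, with the same median of 6.73 on every array. Of 14038 genes tested, 4720 (33.6%) were higher in HL60 than in the mean of the other lines and 4173 (29.7%) were lower, at an adjusted p under 0.05 in the limma fit. With 63.3% of all genes called, a call by itself says little about a gene, so sizes and the separation from each line are given throughout. Differences of at least 1 log2 unit were called for 751 higher genes (5.35%) and 1151 lower genes (8.2%). Vehicle arrays of the same line correlated at 0.995 to 0.998 over genes, and HL60 arrays correlated at 0.878 to 0.884 with AML-193, 0.854 to 0.857 with KG1a and 0.834 to 0.837 with HNT-34. These correlations are across genes of arrays normalized together and are given as a description. HL60 differed from AML-193 in 9266 genes (66%), from KG1a in 8678 (61.8%) and from HNT-34 in 7999 (57%). RNA integrity was read from the array's control probe sets for ACTB and GAPDH, as signal at the 3′ end minus signal at the 5′ end. Higher values mean more loss towards the 5′ end. The value was 1.27 ± 0.463 (SD, n = 2) in AML-193. It was 0.0443 ± 0.0116 in HL60, -0.0033 ± 0.108 in HNT-34 and 0.0305 ± 0.129 in KG1a (SD, n = 2 each). With that signal as a covariate, 4290 genes differed between HL60 and AML-193. Each group keeps its own mean in that fit, so the slope of the covariate rests only on differences between arrays of the same group. The contrast of lines that differ in the signal loses precision, so the lower count is no count of genes affected by RNA integrity. The part of RNA integrity in the single differences from AML-193 was not tested.

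A gene is called apart here if HL60 differed from each of the 3 lines in the same direction, at an adjusted p under 0.05 in all 3 comparisons, and both HL60 arrays lay outside all 6 other arrays. HL60 was apart and higher for 1516 genes (10.8%) and apart and lower for 1400 genes (9.97%). With the 3′ minus 5′ signal, which was high in AML-193, as a covariate these counts were 873 and 922. They carry the same loss of precision in the contrast with AML-193. By the same rule AML-193 was apart for 4531 genes (32.3%), HNT-34 for 2914 (20.8%) and KG1a for 2762 (19.7%), against 2916 (20.8%) for HL60. HL60 was the lowest line by more than 1 log2 unit from every other line for 330 genes (2.35%) and the highest for 227 (1.62%). In each of the other 3 lines the higher genes outnumbered the lower ones at that size, with 538 (3.83%) against 369 (2.63%) in AML-193, 439 (3.13%) against 369 (2.63%) in HNT-34 and 391 (2.79%) against 206 (1.47%) in KG1a. The order was the other way round in HL60. Of the 1400 lower genes, 208 were under the array median on both HL60 arrays, where signals lie near the background and differences are compressed. The same holds for the other side of 108 of the 1516 higher genes, which were under the array median on all 6 arrays of the other lines.

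**Figure D1:**
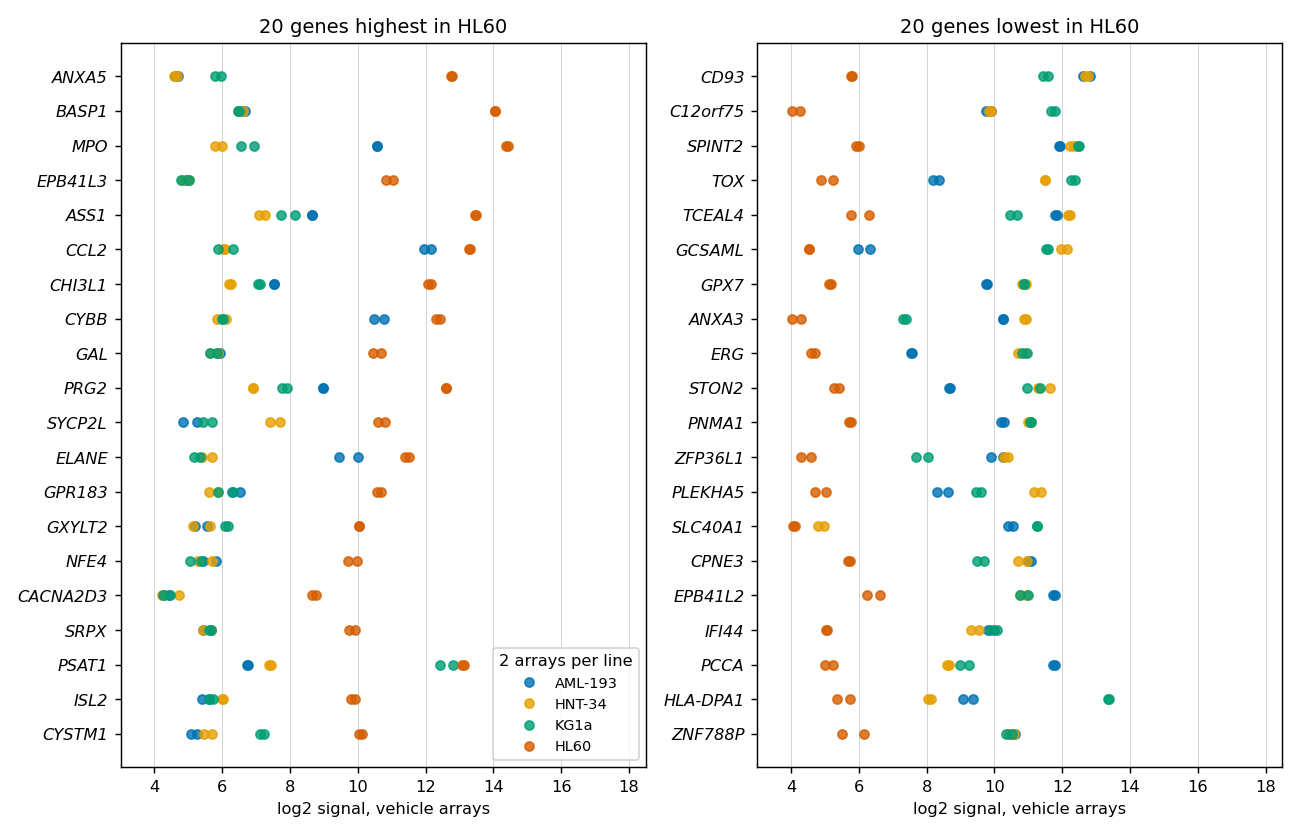
Log2 signal (x axis) on the 8 vehicle arrays for the 20 genes highest (left) and the 20 lowest (right) in HL60 by its difference from the mean of the other lines, among genes apart from all lines; each point is 1 array and colours mark lines. The HL60 points lie outside those of every other line in all rows, and in ANXA5 and BASP1 the other lines sit between 4.58 and 6.67 while HL60 lies at 12.74 or above.

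The 3 genes with the largest excess were ANXA5, BASP1 and MPO, the markers given for this comparison. ANXA5 encodes annexin A5, a cytosolic protein that binds phosphatidylserine in the presence of calcium. Its log2 signal was 12.79 and 12.74 on the HL60 arrays, against 4.61 and 4.70 in AML-193, 4.67 and 4.58 in HNT-34 and 5.79 and 5.95 in KG1a. HL60 was thus bright and all other arrays lay under the array median. The difference was 7.72 ± 0.08 (SE of the fit) with an adjusted p of 7.73e-16 in limma. Signals under the array median lie near the background, so this is a difference in array signal and no measured ratio of transcript. Among the vehicle arrays the gene reached the array median on those of HL60 alone.

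BASP1 encodes a membrane-bound protein that is also a partner of the transcription factor WT1. It gave 14.06 and 14.05 in HL60 and 6.48 to 6.67 on the 6 other arrays, a difference of 7.50 ± 0.06 (adjusted p = 1.29e-16). A second probe set of BASP1, also bright, differed by only 0.02, so the array's probe sets for this gene disagree. MPO, the azurophil peroxidase, was at 14.44 and 14.36 in HL60 and at 10.57 and 10.56 in AML-193. HNT-34 had 5.80 and 6.0 and KG1a 6.94 and 6.55. MPO was therefore well above the array median in a second line too, and the difference from the mean of the 3 lines was 6.67 ± 0.12 (adjusted p = 5.52e-14). In a bulk sample, fewer cells with a transcript and less transcript per cell cannot be told apart.

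The 250 bases before the annotated start of the extreme genes are printed from RefSeq (build GRCh38.p14), because AZA, the drug of the series, acts on the methylation of CG pairs. No methylation was measured in the files used here. The genes do not share 1 pattern over the lines: a second probe set of BASP1 was bright with little difference, and GCSAML was under the array median in AML-193 as well as in HL60. Capitals mark CG pairs, and each sequence reads 5′ to 3′ on the gene's strand. They are the genes of largest difference on either side for which the promoter table had an entry. The windows are chr4:121696981-121697230 (minus strand) for ANXA5, chr5:17216573-17216822 (plus) for BASP1, chr18:5628992-5629241 (minus) for EPB41L3, chr12:105330441-105330690 (plus) for C12orf75, chrX:103585265-103585514 (plus) for TCEAL4 and chr1:247506808-247507057 (plus) for GCSAML. The first 3 genes were higher in HL60 and the last 3 lower.
ANXA5: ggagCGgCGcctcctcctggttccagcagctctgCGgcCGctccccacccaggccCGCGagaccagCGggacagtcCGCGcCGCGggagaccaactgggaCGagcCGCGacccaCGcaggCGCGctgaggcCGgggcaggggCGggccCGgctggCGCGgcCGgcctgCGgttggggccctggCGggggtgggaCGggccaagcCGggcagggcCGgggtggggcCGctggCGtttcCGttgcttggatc
BASP1: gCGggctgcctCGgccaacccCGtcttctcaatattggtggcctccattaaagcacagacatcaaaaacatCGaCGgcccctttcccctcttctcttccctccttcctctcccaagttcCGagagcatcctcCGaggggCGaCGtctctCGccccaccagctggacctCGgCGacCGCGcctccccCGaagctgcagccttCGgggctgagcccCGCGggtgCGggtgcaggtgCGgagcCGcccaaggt
EPB41L3: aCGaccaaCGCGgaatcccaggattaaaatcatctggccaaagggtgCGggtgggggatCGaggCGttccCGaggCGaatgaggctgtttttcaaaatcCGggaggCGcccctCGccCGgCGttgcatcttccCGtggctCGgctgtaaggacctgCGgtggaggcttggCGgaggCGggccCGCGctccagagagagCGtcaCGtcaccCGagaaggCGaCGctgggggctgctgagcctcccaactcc
C12orf75: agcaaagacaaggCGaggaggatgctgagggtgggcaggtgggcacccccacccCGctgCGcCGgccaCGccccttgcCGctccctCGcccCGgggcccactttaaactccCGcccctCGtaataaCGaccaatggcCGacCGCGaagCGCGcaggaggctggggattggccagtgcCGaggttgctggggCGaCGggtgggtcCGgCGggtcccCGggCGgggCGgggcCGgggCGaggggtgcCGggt
TCEAL4: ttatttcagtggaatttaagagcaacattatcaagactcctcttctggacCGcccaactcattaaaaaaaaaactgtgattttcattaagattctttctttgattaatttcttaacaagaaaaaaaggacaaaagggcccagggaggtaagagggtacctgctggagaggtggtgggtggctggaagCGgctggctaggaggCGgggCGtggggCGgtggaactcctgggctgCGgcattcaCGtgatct
GCSAML: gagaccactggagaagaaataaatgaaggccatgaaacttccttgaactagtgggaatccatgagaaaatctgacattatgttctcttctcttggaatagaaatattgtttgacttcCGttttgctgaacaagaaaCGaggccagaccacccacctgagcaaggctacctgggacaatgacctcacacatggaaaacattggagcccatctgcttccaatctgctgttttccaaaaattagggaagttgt

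ANXA5 had 31 CG pairs in this window, BASP1 21, EPB41L3 25 and C12orf75 27, while TCEAL4 had 7 and GCSAML 2. CG-rich and CG-poor windows thus occurred among the genes of largest difference. Entries were found for 11212 of the 14038 genes tested, and the median was 20 CG pairs over all of them, 20 for genes apart and higher in HL60 and 21 for genes apart and lower. Windows with at most 3 CG pairs made up 9.57% of all tested genes with an entry. Among genes apart by at least 2 log2 units they made up 14 of 127 (11%) of the higher and 25 of 163 (15.3%) of the lower genes. The letters AGGAAGT, a core that ETS-family factors can bind, stood on either strand in 7.4% of all windows, in 17 of those 127 higher genes (13.4%) and in 16 of the 163 lower genes (9.82%). These are descriptions of letters in a window and carry no test.

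Genes of the azurophil granule list were mostly higher in HL60 than in the mean of the other lines. AML-193 was the line that resembled HL60. Of 21 tested members, 15 were higher and 2 lower, against 33.6% and 29.7% of all genes. The median difference was 0.97 against 0.05 over all genes tested. The list also holds the eosinophil genes PRG2, EPX, CLC and RNASE2, so its counts and medians are not of azurophil genes alone. PRG2 was among the higher genes, and EPX and CLC were not called. The median was 2.08 against HNT-34, 1.43 against KG1a and -0.07 against AML-193, and it was 0.44 without HNT-34. RNASE2 is also among the 8 defining genes used here. All 8 were at or above the array median on both arrays in HL60 and in AML-193, against 4 in KG1a and 2 in HNT-34. Their summed log2 signal was 96.7 to 96.8 in HL60, 98.2 to 99.1 in AML-193, 57.2 to 57.4 in KG1a and 50.1 to 51.8 in HNT-34. By this count HL60 and AML-193 were alike, and the sum was slightly higher in AML-193. Single genes of the set differed between these lines in both directions.

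Of the 21 members, 5 were apart and higher in HL60, where 10.8% of all genes were. They were MPO, ELANE, LYZ, CST7 and the eosinophil gene PRG2. ELANE, neutrophil elastase, gave 11.38 and 11.50 in HL60, 9.46 and 10.01 in AML-193, and 5.18 to 5.71 on the other 4 arrays. PRG2, the major basic protein of eosinophils, gave 12.59 on both HL60 arrays, 8.96 on both AML-193 arrays, 6.90 and 6.92 in HNT-34 and 7.77 and 7.91 in KG1a. LYZ, lysozyme, exceeded AML-193 by 0.83, KG1a by 3.09 and HNT-34 by 5.99. The other proteases of the granule were higher in AML-193. AZU1, azurocidin, was at 11.70 and 11.68 in HL60 and at 14.21 and 14.12 in AML-193, and PRTN3, proteinase 3, was lower than in AML-193 by 2.07 log2 units and higher than in the other lines by 5.45 and 5.35. CTSG, cathepsin G, lay between, with 11.64 and 11.69 in HL60, 12.61 and 12.85 in AML-193 and 10.12 to 10.48 elsewhere. SERPINB1, an inhibitor of these proteases, was the member that was apart and lower, at 11.65 and 11.59 against 12.01 to 14.12 on the other arrays. DEFA4, a defensin of the granule, was at 6.94 and 7.09 in HL60, close to HNT-34 and KG1a and far under the 11.59 and 11.35 of AML-193.

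Genes of later neutrophil stages did not share a direction. Of 29 tested members of the specific-granule and late neutrophil list, 16 were higher and 9 lower, against 33.6% and 29.7% of all genes. The median was 0.23. CHI3L1, a chitinase-like glycoprotein of specific granules, gave 12.16 and 12.06 in HL60 and 6.19 to 7.54 on the other arrays. CYBB, the large subunit of the phagocyte oxidase, gave 12.43 and 12.31 against 10.49 and 10.77 in AML-193 and 5.86 to 6.11 elsewhere, although bright probe sets of the gene ranged from -0.43 to 4.83. Both genes were apart and higher. The formyl peptide receptors FPR1 and FPR2 were apart and higher too, by 1.5 and 2.93 against the mean. LTF, lactoferrin, and CAMP, the cathelicidin, which define the specific granule, showed no called difference (-0.09 each). ANXA3 was at 4.03 and 4.30 in HL60 and at 7.31 to 10.92 on the other arrays, a difference of -5.34 ± 0.09. PADI4, the enzyme that citrullinates histones in neutrophils, was apart and lower by 1.15.

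Monocyte and macrophage genes included many that were highest in HL60. Of 35 tested members, 20 were higher and 8 lower, against 33.6% and 29.7% of all genes. Apart and higher were 14 and apart and lower 2, against 10.8% and 9.97%. The median was 0.50, or 0.32 without HNT-34. Among 4 defining monocyte genes, 2 reached the array median on both arrays in HL60 and in AML-193, and 1 in HNT-34 and in KG1a. The genes were CD14 and CSF1R in HL60 but FCN1 and CSF1R in AML-193. Their summed log2 signal was 27.1 to 27.4 in HL60, 28.2 to 28.7 in AML-193 and 23.7 to 24.2 in the other lines. CD14, the lipopolysaccharide co-receptor, gave 8.38 and 8.61 in HL60 and 5.79 to 5.95 on the other 6 arrays. The adaptors FCER1G and TYROBP, which pass signals from activating receptors, exceeded the mean by 3.34 and 3.06, and CLEC7A, the beta-glucan receptor dectin-1, by 3.55. All 4 genes were apart. MNDA, a nuclear antigen of myeloid cells, was at 11.77 on both HL60 arrays and at 11.61 and 11.77 in AML-193, so that HL60 and AML-193 overlapped. CSF1R, the receptor that defines monocytes, was 7.27 on both HL60 arrays and 7.32 on both AML-193 arrays and gave no call. FCN1 was at 5.80 and 5.95 in HL60 against 9.26 and 9.65 in AML-193. ITGAM, the alpha chain of the complement receptor CD11b, was apart and lower, at 7.64 and 7.81 against 9.46 to 11.68 on the other arrays, while its second probe set differed by 0.17. The chemokine CCL2 gave 13.32 and 13.28 in HL60, 11.96 and 12.17 in AML-193, and 5.89 to 6.32 in the other lines.

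Genes of stem and progenitor cells were lower in HL60. Of 32 tested members, 25 were lower, 3 higher and 10 apart and lower, against 29.7%, 33.6% and 9.97% of all genes. The median was -2.0. Against HNT-34 and KG1a the medians were -2.95 and -2.82, and against AML-193 0.05, so the mean reflects the difference from the CD34-positive lines. It was -3.02 without AML-193 and -1.18 without HNT-34. CD34 itself, the surface antigen of progenitors, was at 7.73 and 7.55 in HL60, 7.64 and 7.91 in AML-193, 11.80 and 11.69 in HNT-34 and 12.46 and 12.64 in KG1a. HL60 and AML-193 overlapped and HNT-34 and KG1a were high. ERG, an ETS factor of stem cells, was apart and lower, with 4.71 and 4.58 in HL60, 7.53 and 7.58 in AML-193 and 10.69 to 10.96 in the others. CPXM1, a carboxypeptidase-like gene, was at 6.65 and 6.52 against 10.58 to 11.43 on the 6 other arrays. MEIS1 was at 4.83 and 4.31 in HL60, 5.18 and 4.88 in AML-193 and 10.61 to 10.86 in HNT-34 and KG1a. HOPX, a homeodomain-only protein, gave a difference of -4.38 through HNT-34 and KG1a alone, as HL60 and AML-193 overlapped between 5.30 and 6.55. KIT, the stem cell factor receptor, was at 7.99 and 8.07, above AML-193 by 2.91 and below HNT-34 by 2.75. Among the 3 higher members were FLT3, the receptor for FLT3 ligand, and GPR183, an oxysterol receptor. FLT3 gave 9.56 and 9.54 in HL60 and 6.72 to 8.63 elsewhere, and GPR183 gave 10.69 and 10.57 against 5.61 to 6.53. Both were apart and higher.

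HOX genes and their partners were lower in 14 and higher in 4 of 22 tested members, against 29.7% and 33.6% of all genes. The median of -0.34 rested on HNT-34. The median was -0.47 against HNT-34, -0.06 against AML-193 and 0.12 against KG1a, and it was -0.08 without HNT-34. The 2 members apart and lower made up no larger a share than the 9.97% of all genes. These were MEIS1 and HOXB3. HOXB3 gave 5.86 and 5.49 in HL60, 6.51 on average in KG1a, 9.41 and 9.07 in AML-193 and 11.20 and 11.24 in HNT-34. The high line differed from gene to gene. HOXC6 was at 10.61 and 10.44 in AML-193 and between 5.87 and 7.02 in the other 3 lines, while HOXB6 was at 9.76 or above in HNT-34, 7.37 on both AML-193 arrays and 5.34 to 5.88 in HL60 and KG1a.

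Among 39 tested myeloid transcription factors, 21 were higher and 13 lower in HL60, 7 were apart and higher and 6 apart and lower, where 33.6% and 29.7% of all genes were higher and lower and 10.8% and 9.97% apart. The median of 0.33 was 0.12 without HNT-34, and it was 0.10 against AML-193, 0.19 against HNT-34 and 0.10 against KG1a. CEBPE, the C/EBP factor of the step from promyelocyte to myelocyte, gave 11.65 and 11.72 in HL60, 9.60 and 9.68 in AML-193 and 6.62 to 7.01 in the others. CEBPD, a C/EBP factor of later myeloid cells, gave 11.03 and 11.09 in HL60, 8.86 and 8.91 in KG1a and 5.87 to 6.49 in AML-193 and HNT-34. HL60 was the highest line for both, by 2.05 or more. ID1, an inhibitor of helix-loop-helix factors, was at 5.96 and 6.41 in HL60 and at 9.25 to 11.68 on the other arrays, a difference of -4.48 ± 0.12. IKZF2, the Ikaros-family factor Helios, and GFI1B, a repressor of the erythroid and megakaryocyte lineages, were lower by 3.01 and 2.89. IKZF2 was apart, by 0.50 from AML-193. GFI1B was not, as AML-193 had a mean of 7.05 and HL60 7.30. GATA2 lay between the lines, at 9.14 and 9.15 in HL60, 7.03 and 7.15 in AML-193 and 10.73 to 12.09 in the others.

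MHC class II genes had lower signals in HL60 mainly by comparison with KG1a and HNT-34. Against AML-193 the list had a median near 0. Of 16 tested members of the presentation list, 9 were lower and 4 higher, 5 were apart and lower and none apart and higher, where 29.7% of all genes were lower and 9.97% apart and lower. The median was -1.15, with 0.03 against AML-193, -0.81 against HNT-34 and -1.74 against KG1a. It was -0.41 without KG1a and -1.77 without AML-193. HLA-DPA1, an alpha chain, was at 5.36 and 5.75 in HL60, 8.05 and 8.13 in HNT-34, 9.06 and 9.38 in AML-193 and 13.36 and 13.38 in KG1a. CD74, the invariant chain that occupies the groove, was at 8.15 and 8.43 in HL60, against 9.49 to 13.05 elsewhere. HLA-DPB1, HLA-DMA and HLA-DMB, which encode another DP chain and the peptide loader, were apart and lower as well. HLA-DRA, the DR alpha chain, was low in HL60 at 6.30 and 6.20 and low in AML-193 at 6.04 and 5.71, and stood at 11.94 and 12.00 in HNT-34 and 14.02 and 13.99 in KG1a. CIITA, the coactivator that drives these genes, showed little of this spread in its signal. Its signals ran from 7.03 to 7.53 on all 8 arrays and its difference was 0.21 ± 0.08. These signals lie close to the array median of 6.73, so their flatness says little about the transcript. The sign of the CIITA difference changed when the mean of its probe sets was used.

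MHC class I genes were not low. Of 21 tested members, 13 were higher and 4 lower, against 33.6% and 29.7% of all genes. The median of 0.27 was 0.01 without HNT-34, the line with the lowest levels. HLA-B was at 14.58 and 14.62 in HL60, 14.78 and 14.86 in AML-193, 14.31 and 14.40 in KG1a and 11.57 and 11.53 in HNT-34. The trimming peptidases ERAP1 and ERAP2 went opposite ways. ERAP2 gave 11.73 and 11.67 in HL60 and 7.86 to 10.68 elsewhere. ERAP1 gave 7.35 and 7.49 in HL60 and 9.67 to 10.97 elsewhere, but its bright probe sets ranged from -3.05 to 3.40, so its direction depends on the probe set.

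Interferon-stimulated genes were lower in 38 and higher in 5 of 53 tested members, a larger share than the 29.7% of all genes called lower. The median was -0.70, with -0.57 against AML-193, -0.33 against HNT-34 and -0.97 against KG1a. Apart and lower were 15 members and apart and higher 1, where 9.97% and 10.8% of all genes were. IFI44 was at 5.05 and 5.04 in HL60 and at 9.31 to 10.08 on the other 6 arrays. The antiviral membrane proteins IFITM1, IFITM2 and IFITM3 all lay below every other array. IFITM1 gave 8.33 and 8.43 against 12.35 to 13.53, and IFITM2 and IFITM3 were lower by 2.25 and 2.42 at much brighter signals. RSAD2, the antiviral enzyme viperin, differed mainly from KG1a, where it was at 12.12 and 12.07. It was at 5.34 and 4.91 in HL60 and 5.17 and 4.91 in AML-193.

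**Figure D2:**
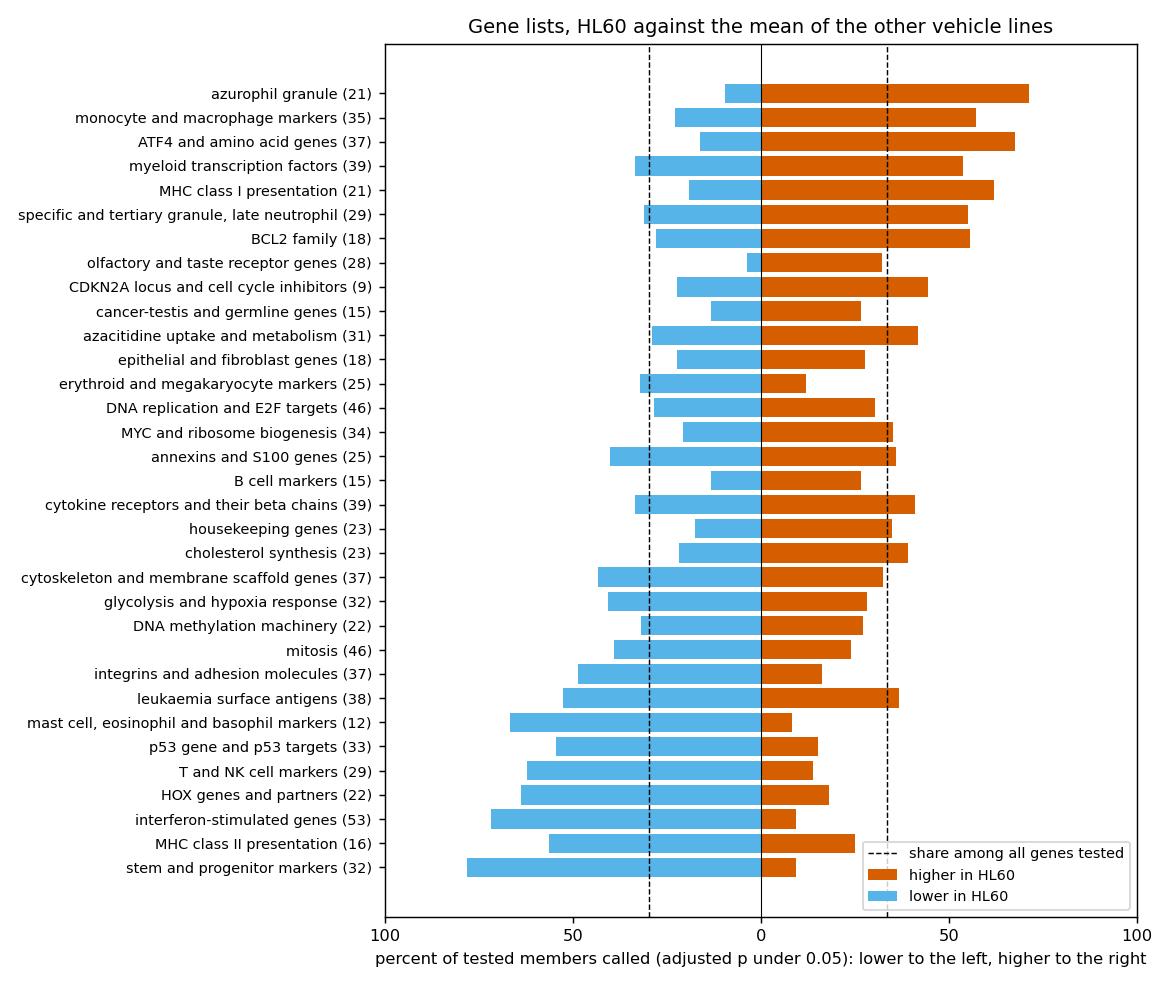
Percent of tested members of each gene list (number tested in brackets) that were called higher (right, orange) or lower (left, blue) in HL60 than in the mean of the other vehicle lines, adjusted p under 0.05; dashed lines give the shares among all 14038 genes tested, 33.6% and 29.7%. Lists are ordered by their median difference, with stem and progenitor markers at the bottom (25 of 32 lower). The azurophil granule list, which includes some eosinophil genes, is at the top (15 of 21 higher).

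Surface and adhesion molecules gave some of the strongest deficits. CD93, a C-type lectin receptor of early myeloid cells, was the lowest gene of all, at 5.80 and 5.76 in HL60 against 11.44 to 12.82 on the other 6 arrays. The difference was -6.54 ± 0.07 (adjusted p = 4.02e-16), and its second probe set gave -2.77. CD44, the hyaluronan receptor, was at 8.44 and 8.52 against 11.60 to 13.18, and its 10 bright probe sets ranged from -4.50 to -1.52. Of 37 tested integrins and adhesion molecules, 18 were lower, 6 higher and 8 apart and lower, against 29.7%, 33.6% and 9.97% of all genes. ICAM2 and JAM3, which serve contacts of leukocytes with endothelium, were apart, with differences of -3.37 and -3.61. SPINT2, a membrane-anchored inhibitor of serine proteases, was at 5.93 and 6.02 in HL60 and at 11.91 to 12.51 on the other arrays, a difference of -6.26 ± 0.12. Of 38 tested leukaemia antigens, 20 were lower and 14 higher, against 29.7% and 33.6% of all genes. Their median of -0.237 depended on HNT-34. It was -0.416 against HNT-34, 0.064 against AML-193 and 0.051 against KG1a, and 0.185 without HNT-34. PRAME, a tumour antigen, was at 11.88 and 11.91 in HL60 and 11.84 and 11.82 in HNT-34, and at 6.07 to 6.60 in the other lines.

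Receptors for cytokines and chemokines had no common direction. Of 39 tested members, 16 were higher and 13 lower, against 33.6% and 29.7% of all genes. The median of 0.01 changed sign in 5 of 27 alternative settings. HL60 was apart and higher for 7 members and apart and lower for 3, where 10.8% and 9.97% of all genes were. CXCR4, which holds cells in the marrow, gave 13.03 on average in HL60, 10.85 and 11.24 in AML-193, 8.93 and 9.21 in KG1a and 6.71 and 6.91 in HNT-34. CCR1, a receptor for inflammatory chemokines, gave 10.73 and 10.69 against 7.32 to 8.72. EPOR, the erythropoietin receptor, was apart and higher by 0.84, while of 25 tested erythroid and megakaryocyte markers 3 were higher and 8 lower. The receptor chain IL2RA was at 6.13 and 6.52, close to HNT-34 at 6.17 and 6.13, and under AML-193, which had 9.62 and 9.44.

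Annexins and S100 proteins, both of them calcium-binding families, split evenly. Of 25 tested members, 9 were higher and 10 lower, against 33.6% and 29.7% of all genes. On each side 3 were apart, against 10.8% and 9.97%. Besides ANXA5, HL60 was apart and higher for S100P, at 13.47 on both arrays against 7.05 to 11.28, and for ANXA4, by 1.01. It was apart and lower for ANXA3, S100Z and ANXA1. S100A8, a subunit of calprotectin, was at 12.13 and 12.11 in HL60 and at 13.84 and 13.78 in AML-193, with 6.28 or less in the other lines, and another bright probe set of it gave -0.15. S100A6 was at 6.93 and 7.09 in HL60 and at 13.16 and 13.11 in AML-193. EPB41L3, a scaffold that ties membrane proteins to actin, gave 11.05 and 10.82 in HL60 and 4.77 to 5.02 on the other arrays. Its relative EPB41L2 went the other way, with 6.62 and 6.25 against 10.77 to 11.80, although another bright probe set of EPB41L2 gave -0.06.

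Metabolic genes among the highest were ASS1 and PSAT1. ASS1, the argininosuccinate synthase of arginine synthesis, gave 13.48 and 13.46 in HL60 and 7.08 to 8.65 on the other arrays. PSAT1, a step of serine synthesis, gave 13.07 and 13.12 in HL60 and 12.43 and 12.81 in KG1a, and only 6.73 to 7.43 in AML-193 and HNT-34. PHGDH, the step before it, had the same order, with 13.13 and 13.15 in HL60, 12.79 and 12.81 in KG1a, 11.90 and 11.82 in HNT-34 and 7.55 and 7.82 in AML-193. The ATF4 and amino acid list was higher in 25 and lower in 6 of 37 tested members, against 33.6% and 29.7% of all genes. Its median was 0.44. Against HNT-34 alone the median was -0.20, against KG1a 0.85, and without KG1a it was 0.08. ATF5 and STC2, targets of the same stress response, were apart and higher by 3.72 and 2.19. PCCA, a subunit of propionyl-CoA carboxylase, and GPX7, a peroxidase of the endoplasmic reticulum, were apart and lower. GPX7 gave 5.13 and 5.18 in HL60 against 9.76 to 10.93.

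The genes that act on DNA methylation and on AZA itself were compared because AZA was the drug of the series. Vehicle cells were parallel controls, so these are not levels measured in the treated cells before the drug. DNMT1, the maintenance methyltransferase, was at 11.45 and 11.47 in HL60 and 11.38 to 11.73 on the other arrays, with no call. DNMT3B, a de novo methyltransferase, was apart and lower, at 7.83 and 7.81 against 9.50 to 12.32. DNMT3A was at 8.10 and 8.13, above KG1a by 0.48 and under AML-193 and HNT-34. TET1 and IDH1 were apart and lower by 1.64 and 1.21, and TET2 was at 9.32 and 9.38, beside 9.42 and 9.33 in KG1a and far above the 4.29 and 4.95 of AML-193. Over the 22 tested members of the methylation list, 6 were higher and 7 lower. Of 31 tested genes of AZA uptake and metabolism, 13 were higher and 9 lower. Among all genes, 33.6% were higher and 29.7% lower. RRM2, a subunit of ribonucleotide reductase, gave 13.05 and 13.03 in HL60 and 11.95 to 12.30 elsewhere. SAMHD1, a phosphohydrolase that breaks down deoxynucleotide triphosphates, was at 11.23 and 11.28, under AML-193 by 1.23 and above HNT-34 by 4.40. ABCB1, the multidrug pump, was bright only in KG1a.

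Targets of p53 were lower in 18 and higher in 5 of 33 tested members, and 8 were apart and lower, against 29.7% of all genes lower, 33.6% higher and 9.97% apart and lower. The median was -0.26, with -0.27 against AML-193, -0.38 against HNT-34 and 0.02 against KG1a. It was -0.17 without HNT-34 and -0.46 with the 3′ minus 5′ signal as a covariate. SESN1, a stress-induced sestrin, was at 8.11 and 8.26 in HL60 and 10.01 to 11.40 on the other arrays. PLK2 and TNFRSF10B, a kinase and the death receptor DR5, were apart and lower too, but the larger part of their difference from the mean came from HNT-34, which was at 9.90 and 9.82 for PLK2 and at 11.75 and 11.80 for TNFRSF10B. CDKN1A, the inhibitor p21, was at 8.56 and 9.08 in HL60, near KG1a at 8.26 and 8.41, under AML-193 at 9.56 and 9.48 and far under HNT-34 at 12.28 and 12.23. CDKN2A, the locus of p16, was at 9.50 and 9.48 in HL60, higher than in HNT-34 and KG1a by 1.65 and 0.60 and lower than in AML-193 by 2.56.

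In the BCL2 family, 10 of 18 tested members were higher, 5 lower and 6 apart and higher, against 33.6%, 29.7% and 10.8% of all genes. BIK, a BH3-only protein that promotes death, gave 10.21 and 10.24 in HL60 and 6.58 to 7.95 elsewhere. The BH3-only genes BCL2L11, PMAIP1 and BMF were apart and higher by 1.04, 0.81 and 0.60, and so was BCL2 itself by 0.63. BCL2L1, which encodes the survival protein BCL-XL, was apart and lower, at 8.82 and 9.08 against 9.78 to 11.57. For BCL2L11 and BCL2L1 the probe sets ranged from -0.27 to 1.04 and from -1.74 to -0.23.

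Several of the genes of largest difference belong to no list. GAL, the neuropeptide galanin, SRPX, a secreted protein, ISL2, a homeodomain factor of motor neurons, and CACNA2D3, a calcium channel subunit, were all under the array median on the 6 other arrays and at 8.64 or above in HL60. Among the 20 highest genes the differences ran from 4.10 to 7.72, with adjusted p-values of at most 1.02e-10. On the low side, C12orf75 gave 4.03 and 4.26 in HL60 and 9.75 to 11.78 elsewhere. PNMA1, TCEAL4 and ZNF788P were likewise bright on all 6 other arrays and under the array median in HL60. GCSAML was at 4.54 and 4.52 in HL60 and only 5.98 and 6.34 in AML-193, so that its difference of -5.39 came from HNT-34 and KG1a. SLC40A1, the iron exporter ferroportin, was high in AML-193 and KG1a and low in HNT-34, at 4.98 and 4.79, beside 4.07 and 4.11 in HL60. Among the 20 lowest genes the differences ran from -6.54 to -4.67, with adjusted p-values of at most 2.29e-12.

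T, NK and mast cell genes were more often lower than higher in HL60, and most B cell genes were not called. Of 29 tested T and NK cell genes, 4 were higher and 18 lower, with 1 apart and lower. Of 12 mast cell and eosinophil genes 1 and 8 were, and of 15 B cell genes 4 and 2. Among all genes, 33.6% were higher and 29.7% lower. The T and NK median was 0.02 against AML-193, -0.12 against HNT-34 and -0.71 against KG1a. Without KG1a it was -0.06, and the mast cell and eosinophil median was -0.01. The mast cell protease CPA3 was at 5.71 and 5.90 in HL60 and at 10.99 to 11.43 in HNT-34 and KG1a. FCER2, the low-affinity IgE receptor of B cells and monocytes, and MZB1, a chaperone of plasma cells, were apart and higher by 1.92 and 1.85. Of 4 genes of epithelium and connective tissue, 1 was at the array median or above in every line. Housekeeping genes had a median of -0.01, with 8 of 23 higher and 4 lower. Replication genes (14 higher and 13 lower of 46), mitosis genes (11 and 18 of 46), cholesterol synthesis (9 and 5 of 23), glycolysis and hypoxia genes (9 and 13 of 32) and MYC and ribosome genes (12 and 7 of 34) had medians from -0.11 to 0.04.

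**Figure D3:**
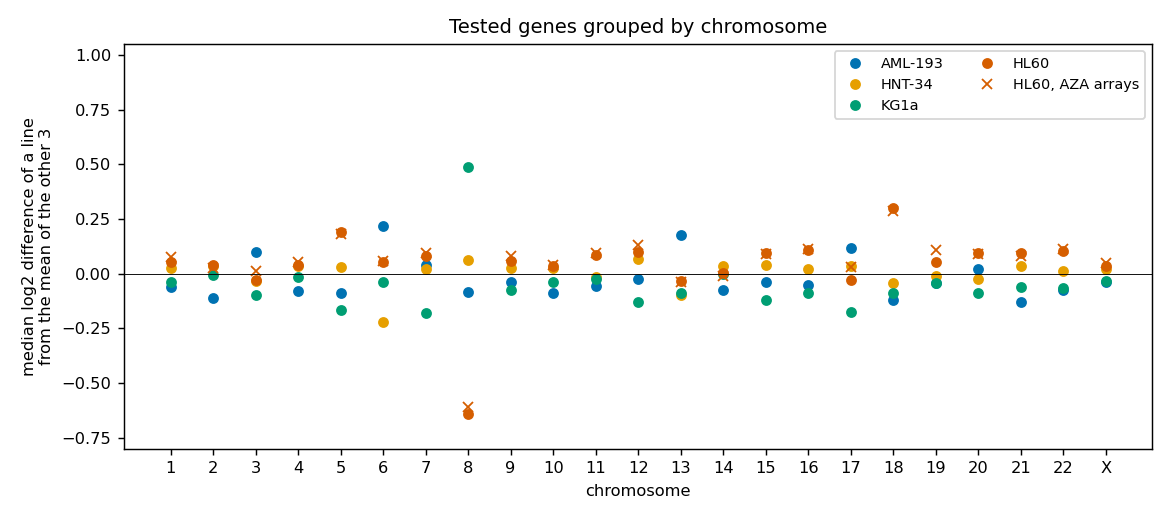
Median log2 difference of a line from the mean of the other 3 lines (y axis) over the tested genes of each chromosome (x axis), vehicle arrays; points are lines, and crosses show the same for HL60 on the AZA arrays. HL60 stands at -0.64 on chromosome 8 and 0.30 on chromosome 18, and the vehicle point and the cross lie close together.

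Grouping the tested genes by chromosome, a step taken after the data had been seen, gave chromosome 8 the lowest median in HL60. The median difference over its 485 tested genes was -0.64, while the other chromosomes except 5 and 18 had medians from -0.03 to 0.11. HL60 was lower for 322 of these genes (66.4%) and apart and lower for 183 (37.7%), against 29.7% and 9.97% of all genes. The deficit held against each line, with medians of -0.32 against AML-193, -0.50 against HNT-34 and -0.81 against KG1a. KG1a itself stood at 0.49 on this chromosome, and without KG1a the HL60 median was -0.43. On the AZA arrays, which share no array with this comparison, the median was -0.61. Chromosome 18 had a median of 0.30, with 54 of 190 genes apart and higher (28.4% against 10.8%), and chromosome 5 a median of 0.19, with 126 of 610 (20.7%). On chromosome 5 the HL60 medians were 0.19 against AML-193, 0.12 against HNT-34 and 0.25 against KG1a. KG1a itself was at -0.16 there, and without KG1a the HL60 median was 0.16. Lower stretches were not limited to chromosome 8. In consecutive blocks of 25 tested genes, chromosome 10 had medians of -0.88 from TASOR2 to CAMK1D, with 24 genes below 0 and 18 apart and lower, and -0.87 from CCDC3 to PLXDC2. Over 5 successive blocks of chromosome 14, from RHOJ to TTC8, the medians ran from -0.72 to -0.33. These values are descriptions with no test.

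**Figure D4:**
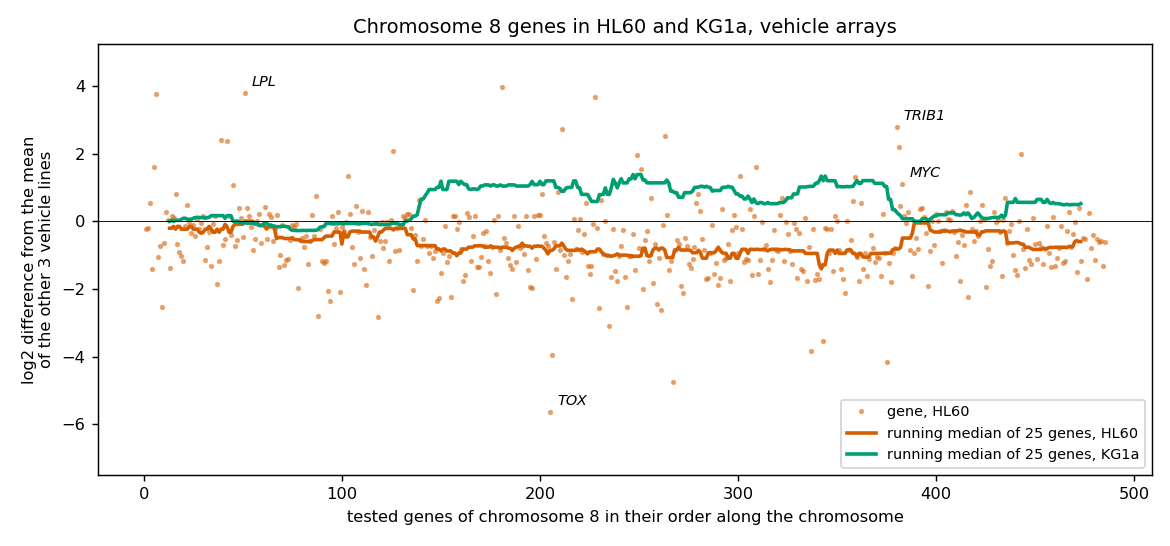
Log2 difference of HL60 from the mean of the other vehicle lines (y axis) for the tested genes of chromosome 8 in their order along the chromosome (x axis, rank); lines are running medians of 25 genes for HL60 and KG1a. The HL60 line lies below 0 over most of the chromosome and comes close to it at MYC and TRIB1, which are above 0.

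Along chromosome 8 the deficit was broad but not uniform. In the same blocks the median reached -1.05 in the block from ENPP2 to MTSS1 and -1.0 from ARFGEF1 to ZBTB10, and it was -0.34 in the next block after MTSS1, from ZNF572 to PTCSC1. In the first 5 blocks, from FBXO25 to NRG1, KG1a lay between -0.24 and 0.17 of the other lines and HL60 between -0.54 and -0.15. MYC, the growth regulator known to be amplified in HL60, lies in the stretch after MTSS1. It gave 13.97 and 13.90 in HL60 and 11.98 to 13.57 on the other arrays, a difference of 1.09 ± 0.16 with HL60 apart. TRIB1, a pseudokinase that binds C/EBP alpha and lies near MYC, was at 12.89 in HL60 on average, 11.38 in HNT-34, 10.34 in KG1a and 8.57 in AML-193. POU5F1B, between them, was apart and higher by 0.45. LRATD2, also between them, was at 9.96 in HL60, 10.57 in AML-193, 8.08 in KG1a and 4.61 in HNT-34 on average, so HL60 was not apart. The next tested genes after MYC were not lower, with 0.16 for LINC00824 and -0.05 for CCDC26, neither of them called, and 0.28 for GSDMC. CYRIB and ASAP1, which follow them, were apart and lower by 0.84 and 1.61. Before TRIB1, WASHC5 and NSMCE2 gave -0.94 and -0.78 without being apart. WASHC5 was at 9.78 in HL60 and 9.72 in HNT-34, and NSMCE2 at 10.34 and at 10.45 in AML-193, and KG1a was the highest line for both, at 11.89 and 12.13. Single genes of chromosome 8 departed from the rest in both directions: LPL, lipoprotein lipase, was higher by 3.80 and CEBPD by 3.98, while TOX and CPNE3, a factor of lymphoid development and a copine, were lower by 5.64 and 4.77.

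The same lines were set against each other on the AZA arrays, which share no array with the vehicle comparison. There HL60 was higher in 5181 genes (36.9%) and lower in 4037 (28.8%). Of the 1516 genes apart and higher on the vehicle arrays, 1196 (78.9%) were called higher on the AZA arrays, 32 were called lower and 795 were apart again (52.4%, against 14.5% of all genes). Of the 1400 apart and lower, 1146 (81.9%) were called lower, 51 higher and 812 were apart again (58%, against 10.9%). The median difference went from 0.71 to 0.54 and from -1.0 to -0.74. All of the 20 highest and the 20 lowest genes were called in the same direction, and 18 and 20 of them were apart again.

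BASP1 kept its distance, at 7.47, as did SPINT2 at -6.21 and ANXA5 at 7.32. PSAT1 did not, as its difference was 0.62 on the AZA arrays, where HL60 was at 9.48 on average. CD93 gave -2.46, with HL60 at 9.61 on average, and PNMA1 gave -2.60. STC2, FPR2 and SRPX, by contrast with their vehicle differences of 2.19, 2.93 and 4.25, gave -0.01, 0.25 and 2.01. ELANE and PRTN3 were further above the other lines on the AZA arrays, with 5.89 and 5.46. The eosinophil genes EPX and CLC, without a called difference on the vehicle arrays, exceeded the mean of the other AZA lines by 5.98 and 5.27. Whether a gene's difference changed between vehicle and AZA arrays was not tested. On the AZA arrays the 3′ minus 5′ control signal of HL60 was 0.722 ± 0.163 (SD, n = 2), against 0.0443 on the vehicle arrays, and its part in these values was not tested.

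**Figure D5:**
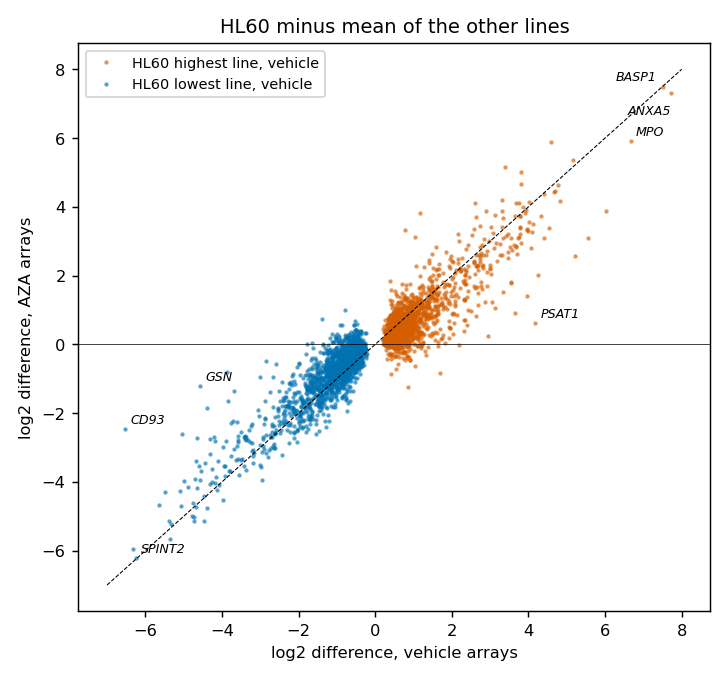
Difference of HL60 from the mean of the other 3 lines on the vehicle arrays (x axis, log2) and on the AZA arrays (y axis, log2) for the genes apart and higher (orange, 1516) or lower (blue, 1400) on the vehicle arrays; each point is a gene and the dashed line marks equal differences. Most points lie in the quadrants of equal sign, with PSAT1 and CD93 far from the dashed line.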

How the data were processed

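Gene expression was measured on 16 Affymetrix U133 Plus 2.0 arrays, 2 for each of 8 groups. The deposited columns hold log2 signals of probe sets. The submitters' processing notes name affy and RMA as tools. Versions and order of steps are not given in the sources used here, and the log base was taken from the range of the values, 3.26 to 15.3. The values were used as deposited. Having 2 arrays per group limits the precision. Of 54675 probe sets, 41097 carried 1 gene symbol in the annotation supplied for the array, 1801 several and 11777 none. Each of 19775 genes was represented by its probe set of highest mean signal, and 14038 of them were tested, those at or above the array median on 2 or more of the 16 arrays. Genes whose probe sets differ are pointed out where named.

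One mean per group was fitted over all 16 arrays with limma 3.58.1 in R 4.3.3 (8 residual and 4.8 prior degrees of freedom), and p-values were adjusted by Benjamini and Hochberg over all genes tested within each contrast. The fit was run on simulated data with independent noise and planted differences. That run cannot check p-values where the arrays of a pair may be technical replicates. Genes are named by rule: among genes apart from all lines, the 20 highest and 20 lowest and the 10 with the widest margin on each side; up to 5 called members of each of 33 lists; any member of a list of 30 or fewer; and ANXA5, BASP1, MPO, CDKN2A and CIITA. Genes near MYC and other chromosome 8 genes were chosen after their values were seen. Genes, lists and comparisons were chosen with earlier results of these data known. Lists are described by counts and medians, without a test. Promoter sequences are from RefSeq, build GRCh38.p14, with chromosome 8 left aside, and a gene table of that assembly gave chromosome and gene order. Alternatives were vehicle arrays alone, other probe set, filter, normalization and moderation settings, a 3′ to 5′ covariate, a minimum difference, and each array or line left out.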

Additional observations from a re-analysis of the deposited data

How the results depend on the processing

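The counts of genes higher and lower in HL60 than in the mean of the other lines stayed within 1.5 times under all alternatives but the test against a minimum of 1 log2 unit, which called 517 and 790. Leaving out each array gave 3629 to 4835 higher and 3514 to 4270 lower genes. Genes apart and higher numbered 2690 by array separation with no test, 227 with at least 1 log2 unit from each line, 873 with the 3′ minus 5′ signal as a covariate, 2723 without AML-193, 2481 without HNT-34 and 1112 to 1595 with 1 array left out. Genes apart and lower numbered 330 with at least 1 log2 unit, 922 with the covariate, 2354 without AML-193 and 1184 to 1461 with 1 array left out. Fewer lines to be apart from leave more genes by construction. The covariate gave 4290 genes called against AML-193 and 3267 higher genes on the AZA arrays; leaving out each array gave 8037 to 9444 against AML-193, 6926 to 8215 against HNT-34, 7317 to 8888 against KG1a, and 4326 to 5307 higher and 3646 to 4095 lower on the AZA arrays. The cause of these changes was not tested. Median differences of chromosomes 8, 18 and 5 ranged from -0.72 to -0.43, 0.26 to 0.35 and 0.16 to 0.24. No paired analysis was possible because the labels carry no replicate numbers. The difference from the mean changed sign without AML-193 for CDKN2A (1.12), DEFA4 (0.17), FCN1 (0.36) and CAMP (0.27), without HNT-34 or KG1a for KIT (0.94 and 0.08), without KG1a for GATA2 (0.22), and with the mean of its probe sets for CIITA (-0.14).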
